A study of Mus musculus and Rattus norvegicus with 4 samples.

Results

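The 10 genes described here are the 4 mouse MEF2 genes (Mef2a, Mef2b, Mef2c and Mef2d), the 4 genes of class IIa histone deacetylases (Hdac4, Hdac5, Hdac7 and Hdac9), Cabin1 and Sik1. They were chosen by name for their place in MEF2 control, out of 21887 protein-coding genes, and the rule uses no measured value, although earlier results of these data were known. MEF2A binding had been mapped by ChIP-exo, in which an exonuclease trims immunoprecipitated chromatin back to the edge of the bound protein before sequencing. The mouse libraries came from C2C12, an established myoblast line, kept for 48 h in differentiation medium with 2% horse serum, and the rat libraries from primary cardiomyocytes of animals 1 to 3 days old. Each cell type had 1 MEF2A and 1 normal rabbit IgG library, no genetic change is stated in the labels, and all values below come from the C2C12 MEF2A list of 2797 peaks. With 1 library per group there is no replicate error, and without expression data the identity of the cells could not be checked against muscle markers.

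MEF2 proteins are transcription factors that bind AT-rich sites through a MADS domain and act on genes of muscle differentiation. Class IIa histone deacetylases bind MEF2 and hold its targets repressed until calcium-dependent and related kinases phosphorylate them, after which 14-3-3 proteins carry them out of the nucleus. Cabin1 is a calcineurin inhibitor that also binds MEF2 and recruits repressors. Sik1 encodes a salt-inducible kinase that acts on class IIa deacetylases, and Hdac9 has been described in muscle as a gene that MEF2 itself activates. The question was whether MEF2A occupied the genes of its own family and of the repressors that bind it.

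One stretch of DNA under a peak of these genes could be read. A peak of 318 bp (chr12:34528818-34529135, mm10) lay across an internal start site of Hdac9, and RefSeq's GRCm38.p6 promoter table, which holds 250 bases before to 50 after annotated start sites, gives the strand of the gene there. The line below gives the 250 bases upstream of that start site (chr12:34528890-34529139, minus strand), of which the peak covered 246, because it is the bound sequence that these data place at a start site. Capitals mark matches of the loose 8-base MEF2 core TANNNNTA, 2 of which overlap at the right, and of the E-box CAGCTG, a site type used by myogenic bHLH factors.
Hdac9 internal start: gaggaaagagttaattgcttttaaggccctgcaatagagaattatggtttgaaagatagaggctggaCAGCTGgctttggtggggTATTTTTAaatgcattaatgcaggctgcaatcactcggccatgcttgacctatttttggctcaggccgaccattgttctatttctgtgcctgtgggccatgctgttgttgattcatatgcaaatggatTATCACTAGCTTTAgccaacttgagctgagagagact

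The full MEF2 consensus was found at the start sites of other genes. The next lines give 30 bases around it at Mef2a (chr7:67372841-67372870, minus strand), Hdac5 (chr11:102230173-102230202, minus strand) and Ywhah (chr5:33018696-33018725, plus strand), each on the strand of its gene with the 10 consensus bases in capitals. They are shown because the first pair lay at start sites with no listed peak and the third lay under a peak. Ywhah, which encodes a 14-3-3 protein, comes from the pathway lists described further on.
Mef2a start: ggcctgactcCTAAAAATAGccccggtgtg
Hdac5 start: gggtctgagcCTATTTTTAGctcggggtcg
Ywhah start: ctcgccgcggCTATTTATAGtaggtgacgt

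Of the 10 genes, 4 had an assigned peak: Mef2c, Hdac5, Hdac9 and Cabin1. A peak went to the protein-coding gene whose span was closest, up to 100 kb away, and by this rule 7.73% of all protein-coding genes had a peak. Mef2a, Mef2b, Mef2d, Hdac4, Hdac7 and Sik1 had none. The 4 genes held 8 peaks in all, and 7 of these lay inside a span. Of all 2797 C2C12 peaks, 1316 (47.1%) lay inside a span, but only 2306 were assigned to any gene, as the 8 were by definition. Merging peaks under 1 kb apart left 6 peaks at these genes. A peak inside the span was held by 4.57% of protein-coding genes and by 4 of the 10 genes. That share covers genes of all lengths, and none matched for length was computed. Whether a peak lay in an exon or an intron is not given by the gene table.

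**Figure D1:**
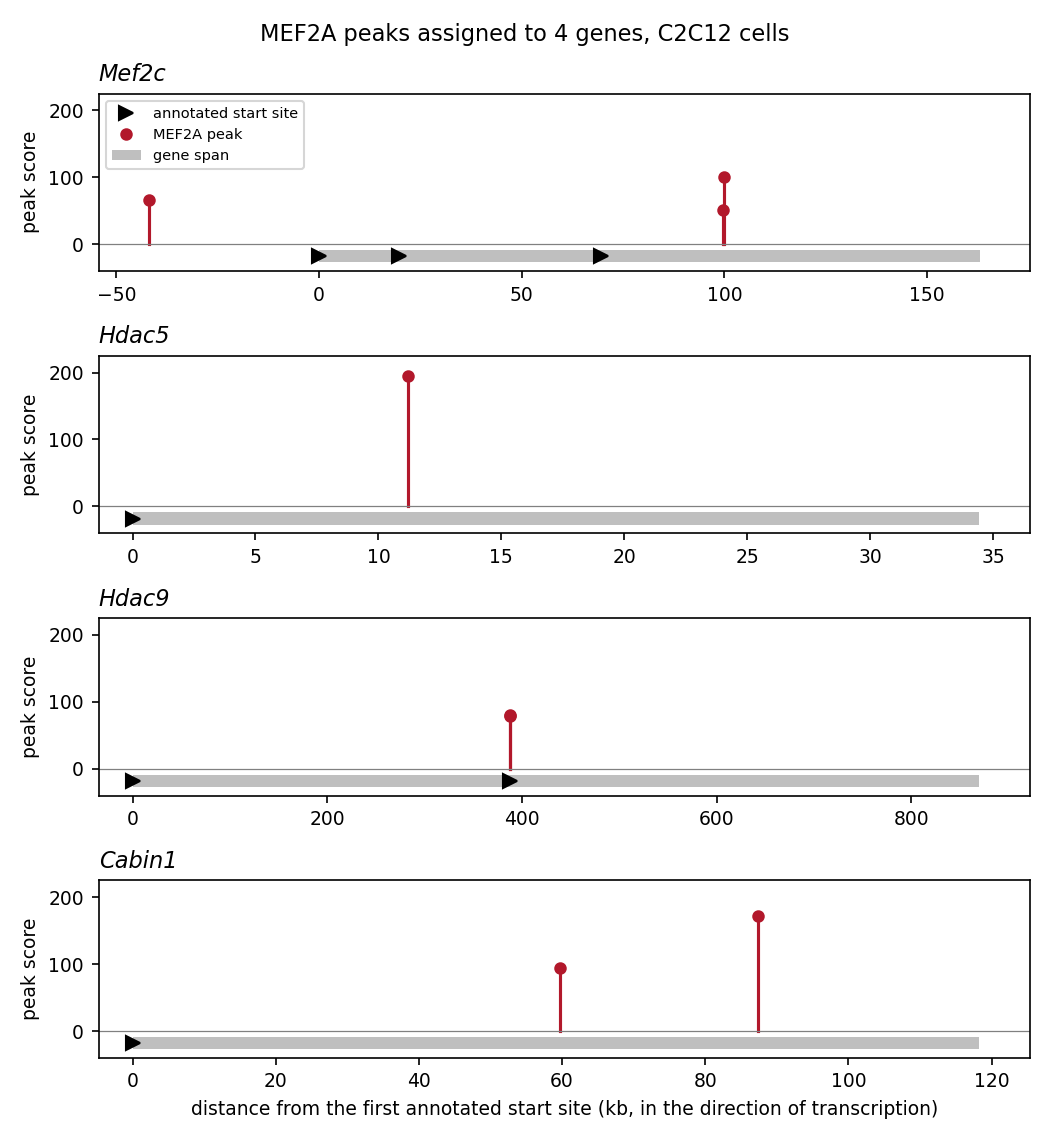
MEF2A peaks of Mef2c, Hdac5, Hdac9 and Cabin1 in C2C12 cells: height is the deposited score, the x axis is the distance in kb from the first annotated start site, grey bars are gene spans and arrowheads are annotated start sites. The Hdac9 peaks (scores 79.5 and 80.2) overlap at this scale and sit at the internal start site. The others lie away from the start sites of the promoter table, which need not list every start site.

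Long genes in gene-poor regions collect more peaks under any such rule, so each gene was also set beside the genes of its class of territory. A territory is the amount of genome in which a peak would go to that gene. All protein-coding genes were divided into 10 classes of equal size by territory. Mef2a, Mef2c, Hdac4 and Hdac9 fell in the class with the widest territories, where 26.6% of genes had a peak, and Mef2c and Hdac9 but neither Mef2a nor Hdac4 were among those with one. That class ran from 201.1 to 2512.7 kb, and the territories of these genes were 215.1, 363.1, 407.3 and 947.2 kb, in that order. Its share is therefore only a rough guide, above all for Hdac9. Hdac5, with a territory of 44.6 kb, had a peak in a class where 4.25% of genes did, and Cabin1, with 122.7 kb, in a class where 11.7% did. The shares were 1.46% for the class of Mef2b, 7.77% for Mef2d, 5.48% for Hdac7 and 14.2% for Sik1. The mean of these shares over the 10 genes was 15.1%, and 40.0% of the genes had a peak. With 10 genes from 1 library this is a description, and no test was made of it.

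Among the MEF2 genes, only Mef2c was assigned a peak. Mef2c encodes a family member required in cardiac and skeletal muscle development, and its span of 163.1 kb lies on chromosome 13 (83504017 to 83667079, plus strand). A peak of 112 bp (chr13:83461933-83462044, score 66.2) lay 42.0 kb upstream of the first annotated start site and overlapped no annotated gene. When all annotated genes competed, Mef2c kept 2 peaks, because this one lay closer to a gene that is not protein-coding. A pair of peaks lay inside the span, at chr13:83603726-83603845 (score 51.0) and chr13:83603878-83604101 (score 100.2), with 32 bp between them. The pair was 99.7 and 99.8 kb downstream of the first start site and 30.1 and 30.3 kb downstream of the third, the nearest one, and it also overlapped the long noncoding RNA gene Gm52043. The score here is the authors' value, which starts at 50.1 in this list and whose scale is not stated. A peak is called stronger here when its score is higher, and binding strength itself was not measured. The weaker peak of the pair ranked 2748 of 2797 and the stronger 1029, so 1 of the Mef2c peaks came from near the bottom of the list.

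Mef2a, Mef2b and Mef2d, the other members of the family, had no peak closer than 320.9 kb to their spans. Mef2a, which encodes the factor that was immunoprecipitated, lies on chromosome 7 (67231163 to 67376456, minus strand). Its nearest peak (chr7:67704393-67704510, score 54.1) lay 327.9 kb away on the upstream side, inside the span of Ttc23. Mef2d (chromosome 3, 88141941 to 88172091) had its nearest peak (chr3:88492953-88493151, score 101.6) 320.9 kb downstream, inside the span of Lmna, which encodes the nuclear lamins A and C. Mef2b (chromosome 8, 70152761 to 70167488) had a stronger one (chr8:70682293-70682591, score 338), but at 514.8 kb and assigned to Lsm4. All of these lay beyond the 100 kb limit.

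Of the class IIa deacetylase genes, Hdac5 and Hdac9 were assigned peaks, and both had them inside the span. Hdac5 (chromosome 11, 102195747 to 102230172, minus strand) had the strongest peak of the 10 genes. It was 335 bp wide (chr11:102218786-102219120), scored 195.1 and ranked 442 of 2797, with 15.8% of C2C12 peaks scoring higher. It lay 11.1 kb downstream of the annotated start site in a span of 34.4 kb. By its highest peak, Hdac5 ranked 349 among the 1691 genes with a peak. No other peak was closer than 776.9 kb.

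Hdac9 differed from the other 3 genes in where its peaks lay, since these were at an annotated start site. Hdac9 (chromosome 12, 34047580 to 34917095, minus strand) spans 869.5 kb, the longest of the 10 genes, and encodes both a full-length deacetylase and a shorter form, MITR, that lacks the catalytic domain. RefSeq's promoter table gives 2 start sites for it, at 34917095 and at 34528889. The wider peak, with a score of 79.5, ran from 246 bases upstream of the internal start site to base 72 of the transcribed side, counting the start site as base 1. The second (chr12:34529349-34529459, score 80.2) was 111 bp wide and lay at bases -570 to -460, 213 bp from the first. The first start site, 387.6 kb from the closer of these peaks, had none listed nearby. Which transcripts start at the internal site is not given by the table. Both scores lay close to the median of all C2C12 peaks (77.0).

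**Figure D2:**
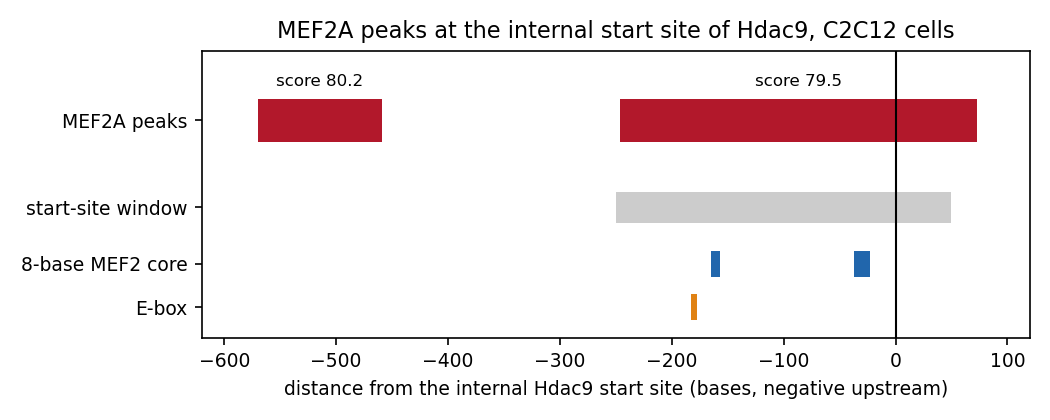
Peaks at the internal start site of Hdac9 in C2C12 cells, by distance in bases from that site (negative upstream): red bars are peaks with their scores, the grey bar is the window of the promoter table, blue bars are matches of the 8-base MEF2 core and the orange bar is the E-box. The peak of score 79.5 spans the start site and covers all marked matches, and the peak of score 80.2 lies outside the window whose sequence was read.

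Overlap of a peak with a start-site window was uncommon in this list. Of 17492 protein-coding genes with a window, 65 (0.372%) had one overlapped by a peak, and of the 9 genes here with a window Hdac9 was the only one so overlapped. Sik1 is not in the promoter table used.

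Hdac4 and Hdac7, the other class IIa genes, had no assigned peak. Hdac4 (chromosome 1, 91928779 to 92195702, minus strand) is long and had 8 peaks within 1 Mb of its span, the most of the 10 genes, yet none inside its 266.9 kb. The closest (chr1:92371742-92371893, score 74.5) lay 176.0 kb upstream and was assigned to Ndufa10, a gene of mitochondrial complex I, at 67.6 kb. A stronger one (chr1:91691683-91691950, score 220.0) lay 236.8 kb downstream, and no protein-coding span was within 100 kb of it; Twist2, a bHLH repressor gene, was 109.5 kb away. Hdac7 (chromosome 15, 97792661 to 97844502, minus strand) had its nearest peak (chr15:97102336-97102460, score 52.7) 690.2 kb downstream. That was the only peak within 1 Mb of Hdac7.

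Cabin1 held a pair of separate peaks inside its span (chromosome 10, 75646110 to 75764357, minus strand). The stronger (chr10:75676903-75677148, 246 bp) scored 171.9, ranked 528 and lay 87.2 kb downstream of the annotated start site. The second (chr10:75704504-75704660, 157 bp) scored 94.2, ranked 1099 and lay 59.7 kb downstream, where it also overlapped the long noncoding RNA gene Gm40696. They were 27.4 kb apart and both in the interior of the 118.2 kb span. Cabin1 ranked 415 of the 1691 genes by its highest peak.

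Sik1 (chromosome 17, 31844248 to 31855804) was the nearest miss among the genes without a peak. A peak of 202 bp (chr17:31748347-31748548, score 90.8) lay 95.7 kb from its span, within the distance limit, but the span of Cryaa, which encodes the lens chaperone alphaA-crystallin, was closer at 66.6 kb and took it. No further peak lay within 1 Mb of Sik1. Of the genes with no peak, Hdac4 was next at 176.0 kb, and the most distant assigned peak was that of Mef2c at 42.0 kb.

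**Figure D3:**
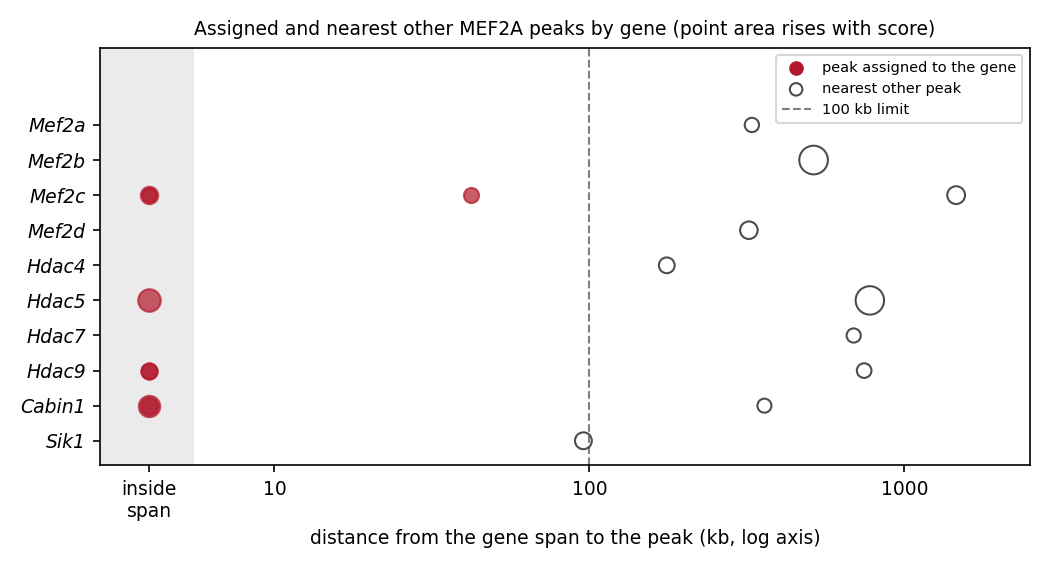
Distance in kb (log axis) from each gene's span to its assigned peaks (red) and to the nearest peak not assigned to it (open), in C2C12 cells; point area rises with score and the dashed line is the 100 kb limit. Red points appear in 4 of the 10 rows, and the open point of Sik1 at 95.7 kb is the only one inside the limit.

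The 8 peaks were neither among the strongest of the list nor all at its floor. Their scores ran from 51.0 to 195.1 with a median of 87.2, against 77.0 for all peaks, and 3 of the 8 (37.5%) scored 100 or more, against 36.8% of all. Their widths ran from 111 to 335 bp with a median of 190.5 bp, against 144 bp for all. The 3 peaks of 100 or more belonged to Mef2c, Hdac5 and Cabin1, and 3.47% of protein-coding genes had an assigned peak that high. That share was not matched for territory. None of the 8 reached 200.

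**Figure D4:**
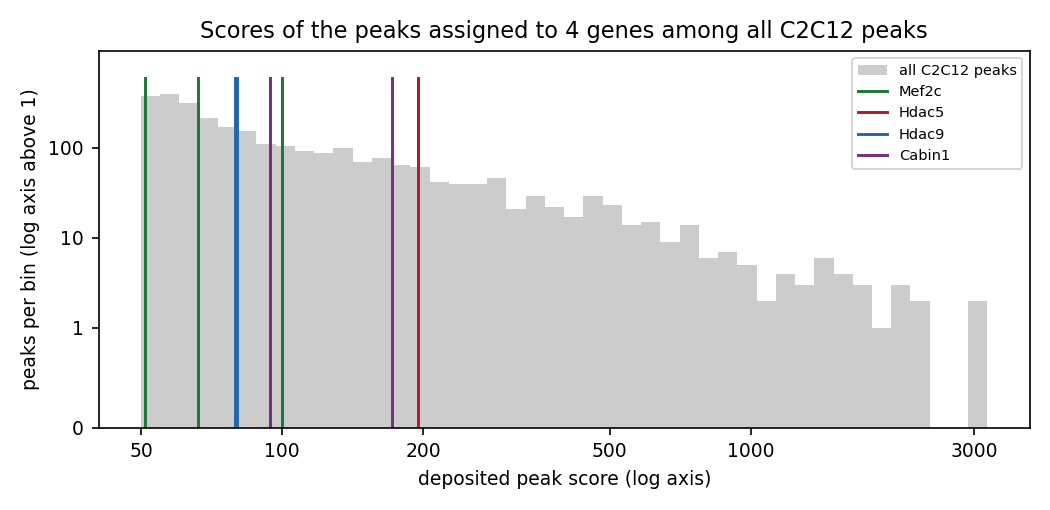
Scores of the 8 peaks assigned to Mef2c, Hdac5, Hdac9 and Cabin1 (coloured lines) over the distribution of all 2797 C2C12 scores (grey, both axes logarithmic). All 8 lie at or below 195.1, and the list runs on to 3100.

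The start-site sequences and the peaks did not coincide for Mef2a and Hdac5. The full MEF2 consensus, searched on both strands, was present in 3.19% of all 32851 windows in the table and in 2 of the 15 windows of these genes, those of Mef2a and Hdac5. Both hold the same 10 bases, read as CTAAAAATAG on the strand of Mef2a and as CTATTTTTAG on that of Hdac5, its reverse complement. These letters occurred in 36 of all windows (0.11%), a count made after the matches had been seen. At Mef2a they ran from base -2 to base 8 and at Hdac5 from base -20 to base -11, with the start site as base 1. No listed peak lay nearer than 331.5 kb to that Mef2a start site or 11.1 kb to that Hdac5 start site. A window with the motif but no peak was the usual case in this list. Of the 1047 windows with the full consensus a peak overlapped 13, and of the 36 with these letters 4. Binding below the peak caller's threshold is not listed, so weaker binding at the Mef2a and Hdac5 sites was not measured.

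The reverse held for the internal Hdac9 window, which was bound and had no full consensus. It held 3 matches of TANNNNTA, all under the peak and at bases -165 to -158, -37 to -30 and -31 to -24, and 1 CAGCTG at bases -183 to -178. The window of the other Hdac9 start site, which no peak overlapped, also held both, with TANNNNTA at bases -228 to -221 and CAGCTG at bases -89 to -84, and an unbound Hdac7 window held CAGCTG. TANNNNTA was present in 37.3% of all windows and in 7 of the 15 here, those of Mef2a, Hdac5, Hdac9 and Mef2c, so a match is common. CAGCTG, added after the sequence had been seen, was present in 16.3% of all windows. Allowing 1 mismatch to the full consensus, the Hdac9 window held GTATTTTTAA and CTATTTTTGG, and 26.9% of all windows held such a site. Over the 99 windows that a peak overlapped, 13 (13.1%) held the full consensus and 54 (54.5%) TANNNNTA. A site with up to 1 mismatch was present in 49 (49.5%) of them and CAGCTG in 18 (18.2%). The windows of Mef2b, Mef2d, Hdac4 and Cabin1 held none of these motifs. A match is a description of the letters and not a measured binding site.

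The rest of the pathway was read from 84 genes in 7 lists of kinases, partners and activators, of which 17 (20.2%) had a peak, beside 7.73% of all protein-coding genes and a mean of 12.2% over their classes of territory. When every gene within 100 kb of a peak was counted, the shares were 29.8% of the 84 and 22.0% of all. No further classical deacetylase gene had one, with 0 of 7 for Hdac1, Hdac2, Hdac3, Hdac6, Hdac8, Hdac10 and Hdac11. The mean share over the classes of territory of these genes was 7.73%, so 0 of 7 carries little information. In the list of 16 corepressor partners, which includes those 7 and has a mean share of 11.6%, only Cbx5, the gene of heterochromatin protein 1 alpha, had peaks. Its stronger one scored 160.6 and lay 10.8 kb downstream of the nearest start site.

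Some kinases that act on class IIa deacetylases had peaks. Over their classes of territory the mean share was 12.9% for the calcium-dependent list, 11.6% for the other kinases and 9.12% for the MAP kinases. Counts this small were not tested against these shares. Of 13 calcium-dependent kinase genes, 3 had one: Camk2d (score 144.5, inside the span), Camk1g (136.1, at 43.9 kb) and Camk2b (56.6, inside the span). No protein kinase D gene had one. Of 10 other kinases, Nuak1 had 3 peaks (highest 117.0, at 6.98 kb) and Sik2, a paralogue of Sik1, had 1 (95.5), which lay inside the span 1.65 kb downstream of the start site. Of 10 MAP kinase genes upstream of MEF2, 3 had a peak: Map2k6 (99.9, at 83.2 kb), Mapk14 (79.3) and Mapk12 (54.95). The Mapk12 peak lay 150 bp upstream of an annotated start site and overlapped its window.

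The 14-3-3 genes had a peak in 3 of 7 cases, beside a mean share of 9.44% over their classes of territory. None of these peaks was inside a span. Ywhaq had the highest score (927.3, at 54.9 kb), followed by Ywhaz (156.3, at 53.9 kb) and Ywhah (152.8). The Ywhah peak (chr5:33018594-33018795) ended 21 bp upstream of the start site and covered the full MEF2 consensus printed above, at bases -110 to -101. A window was given for 9 of the 10 genes and 67 of the 84, and among these a peak overlapped that of Hdac9, Mapk12 and Ywhah. Mrtfb was the other pathway gene with the full consensus in its window, and its nearest peak was 146.7 kb from that start site.

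In the list of 14 calcineurin and NFAT genes 3 had a peak, beside a mean share of 12.2% over their classes of territory. Calcineurin is the calcium-activated phosphatase that Cabin1 inhibits, and its 5 subunit genes, the 4 NFAT genes, Rcan3 and Akap5 had none; at 7.73% of all genes, counts of 0 in groups this small carry little information. Rcan1, a gene of a calcineurin inhibitor, had peaks of score 118.6, inside the span and 1.05 kb downstream of the nearest start site, and 53.9, at 6001 bp. Rcan2 had 3 peaks inside its span with a highest score of 163.6. Akap6, which encodes a scaffold that holds calcineurin at the muscle nuclear envelope, had the strongest peak of the lists (1711, rank 9). Of 14 coactivator genes, whose classes of territory had a mean share of 16.0%, Mrtfa had 3 peaks (highest 210.5, inside the span) and Myocd 1 (58.75, at 95.9 kb).

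**Figure D5:**
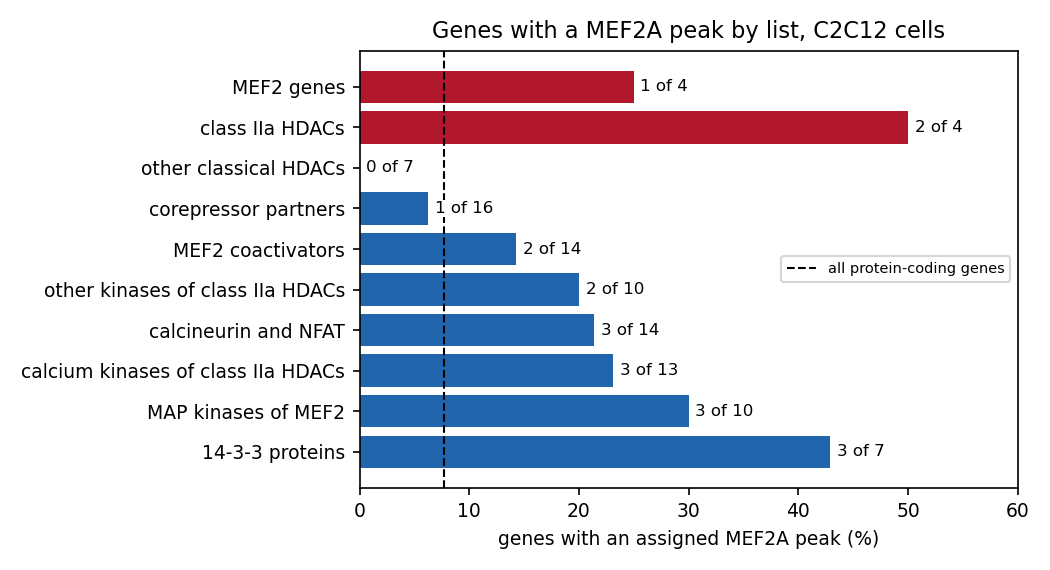
Percentage of genes with an assigned MEF2A peak in C2C12 cells for the MEF2 and class IIa HDAC genes (red) and the pathway lists (blue), with counts beside the bars; the dashed line is the 7.73% of all protein-coding genes. The MEF2 genes stand at 1 of 4, beside a mean share of 15.6% over their classes of territory. The class IIa genes stand at 2 of 4, beside a mean share of 15.7%. The other classical HDACs, which are part of the corepressor list, stand at 0 of 7, beside a mean share of 7.73%. With so few genes per bar the order of the bars was not tested.

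The 1868 rat cardiomyocyte peaks were not placed relative to these genes, because no annotation of rn5 was used here. Peaks near a gene do not show that MEF2A regulates it.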

How the data were processed

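ChIP-exo libraries of MEF2A and IgG from C2C12 cells and rat cardiomyocytes were made as the labels' protocols describe, with 1 library per group. Per the submitters' processing notes, the tools included MACS 1.4.2, BWA 0.5.9, CASAVA 1.7.0, SAMtools and Picard, and the builds were mm10 and rn5; no settings are listed. The authors deposited 1 peak list per MEF2A library with a score per peak, whose scale no header states. Read depth is unknown, so no counting error was computed, and no source used here says whether IgG served as control. Positions are printed 1-based, taking the deposited starts as 0-based.

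Gene spans came from RefSeq's GRCm38.p6 table, and start sites and strands from its promoter table. That table need not list every start site, and 6 of the 10 genes had 1. For Mef2a its only site (67372858) lay inside a minus-strand span ending at 67376456. For Hdac4 it was 92180341, in a span ending at 92195702. All 10 genes and all 84 pathway genes matched the first, and 9 and 67 the second. Every peak went to the closest protein-coding span up to 100 kb away, and a peak overlapping a span had a distance of 0. Territories were measured in steps of 100 bp. Motifs were searched on both strands of 32851 windows of 300 bases. The genes and lists were chosen with earlier results of these data known. All 10 genes and every pathway gene with a peak were to be named, with up to 4 scores per list. No statistical test was run, since the library had no replicate. Assignment and motif search were tested on simulated data. Alternatives were scores of at least 100 or 200, other distance limits, other rules of assignment, merged peaks and looser motifs. Python 3.11.15, numpy 2.4.6, pandas 2.3.3 and matplotlib 3.10.9 were used.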

Additional observations from a re-analysis of the deposited data

How the results depend on the processing

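Mef2c, Hdac5, Hdac9 and Cabin1 were the genes with a peak at limits of 10, 50 and 250 kb, inside spans only, with all annotated genes competing, by nearest start site and with merged peaks. By the nearest end of a span Hdac9 was lost, and with every gene within 100 kb counted Sik1 was added. Mef2c lost its upstream peak at 10 kb, inside spans only and with all annotated genes competing. A score of at least 100 left 3 of the 10 genes with 3 peaks and 11 pathway genes, and a score of at least 200 left 0 genes with 0 peaks and 3 pathway genes; fewer peaks enter by construction. Inside spans only, 11 pathway genes had a peak. The percentage of all protein-coding genes with a peak was 3.47 at a score of at least 100, 1.53 at 200, 5.75 within 10 kb, 7.13 within 50 kb, 8.35 within 250 kb, 4.57 inside spans, 5.96 with all annotated genes competing and 22.0 with every gene within 100 kb counted, where 25 pathway genes had a peak. TANNNNTA, or up to 1 mismatch to the consensus (added after seeing the data), was found at start sites of 4 genes in place of 2. Unknown depth and the single library limit every value. No paired analysis was possible because there was only 1 library per group.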
